A study of Rattus norvegicus with 14 samples.

Results

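Genes of the oligodendrocyte lineage were followed in RNA-seq of rat hippocampal neuron cultures and hippocampal astrocyte cultures that were given allopregnanolone (Allo), a neurosteroid made from progesterone, or vehicle. The list names 31 genes by symbol. It holds 7 genes of precursors, 7 genes of committed cells and 17 genes of myelinating cells. Its rule uses symbols and a minimum level, but the genes were chosen with earlier results of these data known. A gene counted as measured when its mean normalized count over the libraries of a culture was at least 10. By this rule 29 of the 31 were measured in one culture or the other, out of 16307 genes in all. In the neuron cultures 28 were measured (all 7 precursor, all 7 committed and 14 myelin genes), and in the astrocyte cultures 21 (6, 5 and 10). Ermn was below the minimum in both cultures, and so was Opalin in the astrocyte table. Opalin was not analysed in neurons.

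All cells came from embryonic day 18 Sprague Dawley rat hippocampus. Neurons on day 10 in culture were moved to AM medium (0.2% B27), in which low supplement is meant to model aging, and 4 h later received 100 nM Allo (AM-Allo, 4 libraries) or 0.001% ethanol (AM-Veh, 4 libraries) for 16 h. Astrocytes were held in AM medium with 10% charcoal-stripped serum for 24 h before 24 h of Allo at 100 nM (3 libraries) or vehicle (3 libraries). All 14 libraries are thus from cells in AM medium. The astrocyte flasks had been shaken overnight and the medium holding microglia and oligodendrocytes thrown away, whereas no step to remove glia is described for the neuron cultures. The neuron libraries carry replicate numbers in 2 parts (1-1, 1-2, 2-1 and 2-2 in each treatment). The labels do not say what the first part stands for, nor whether libraries came from separate cultures or animals, so each p-value measures the spread between these libraries only.

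Oligodendrocytes wrap axons in myelin and arise from dividing precursors that carry the PDGF receptor Pdgfra and the proteoglycan Cspg4 (NG2). Olig1, Olig2, Sox10 and Nkx2-2 set the identity of the lineage. Cells that stop dividing pass through a short committed stage marked by Gpr17, Enpp6 and Bcas1 and switch on Myrf, a transcription factor needed for the myelin genes. Mature cells then make the myelin proteins (such as Mbp, Mag, Mog and Mobp) and the galactolipids of the myelin membrane.

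The number of reads on genes, estimated for each library from the spacing of its low values, was 1.95e+07 to 2.52e+07 in neuron libraries and 2.22e+07 to 2.87e+07 in astrocyte libraries, and 1 read was worth about 1 normalized count. Genes of mitochondrial DNA took 5.61% to 6.06% and 3.35% to 3.93% of the counts. The neuron cultures held more than neurons. Map2 (neurons) had a mean normalized count of 25621 there and Gfap (astrocytes) one of 92703. All 10 astrocyte markers and all 10 mesenchymal markers (Tagln, 6515) were measured there, and 1 of 10 microglia markers was (Ptprc, 11.7). The astrocyte cultures had all 10 astrocyte markers, all 10 microglia markers (Csf1r, 316) and 8 of 10 mesenchymal markers (Tagln, 44495). They also had 6 of 11 neuron markers (Stmn2, 21769). In such mixed cultures fewer cells of a type and less RNA per cell cannot be told apart.

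Lineage transcripts took a larger share of the RNA of the neuron cultures than of the astrocyte cultures. Summed over the list, the members took 5104 of every 1000000 normalized counts (CPM) in neuron libraries and 655 in astrocyte libraries. The tables were normalized separately, so levels are set side by side in CPM, with no test. Of the 20 members measured in both cultures, 18 were higher in neuron cultures, with a median ratio of 9.46. The share of all genes that were higher, or without overlap, between the cultures was not computed. How usual such gaps are is therefore not known. The median ratio was 18.3 for 6 precursor genes, 14.8 for 5 committed genes and 2.74 for 9 myelin genes. These medians leave out members below the minimum in either culture, so they do not rank the stages. Left out as low in astrocytes were Sox10, Gpr17, Enpp6, Nkx6-2, Mag, Gal3st1, Mbp (66.9 against 0.404 CPM) and Ugt8 (52.2 against 0.0488). Mal, left out as low in neurons, went the other way (0.178 against 1.92).

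Among precursor genes, Olig2, the factor that specifies the lineage, was at 415 ± 29.0 CPM (SD, n = 8) in neuron cultures and 8.60 ± 0.381 (SD, n = 6) in astrocyte cultures. Its partner Olig1 was at 654 ± 47.7 and 39.9 ± 1.81 CPM. The homeodomain factor Nkx2-2 had the widest gap of the 6 precursor genes measured in both, 102 ± 5.60 against 1.72 ± 0.521 CPM. The summed precursor genes spanned 1897 to 2158 CPM over the neuron libraries and 111 to 122 over the astrocyte libraries, so the cultures did not overlap. Pdgfra was at 300.0 ± 22.7 and 24.9 ± 1.78 CPM, and Cspg4, which pericytes also carry, at 110.2 ± 4.09 and 24.03 ± 1.74. Sox8, a relative of Sox10, was at 378 ± 26.2 and 18.7 ± 0.824 CPM. Sox10, the SOX-family factor that the whole lineage depends on, ran from 751 to 1326 normalized counts in neuron libraries (median 953). In astrocyte libraries its 6 values were 2.15, 3.14 and 0 in AM-Veh and 1.09, 0.966 and 0 in AM-Allo, at most about 3 reads. Olig1, Olig2 and Pdgfra were thus measured in the astrocyte cultures while Sox10 was at or near 0.

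The committed genes split in the astrocyte cultures. Bcas1, a protein of newly myelinating cells, stood at 1025 ± 70.03 CPM in neuron cultures and 0.504 ± 0.119 in astrocyte cultures, a ratio of 2036. Gpr17 (a receptor of the committed stage) ran from 3419 to 4062 normalized counts in neuron libraries and from 0 to 8.69 in astrocyte libraries, and Enpp6 (a choline phosphodiesterase) from 199 to 355 and from 1.04 to 9.52. Both were below the minimum in astrocytes. Myrf was at 174 ± 8.07 and 5.88 ± 0.676 CPM, and Bmp4, a ligand that holds back oligodendrocyte differentiation, at 82.7 ± 5.48 and 5.59 ± 0.530. A pair of genes with wider use were close in both cultures. Tcf7l2, a Wnt pathway factor, was at 47.2 ± 2.65 and 35.4 ± 2.43 CPM, and Itpr2, a calcium release channel of the endoplasmic reticulum, at 86.4 ± 3.46 and 55.7 ± 3.22. Even so, every neuron library was above every astrocyte library for both.

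Myelin genes fell into several patterns. Cnp, an enzyme of non-compact myelin, was at 668 ± 30.6 CPM in neuron cultures and 109 ± 2.47 in astrocyte cultures. Mbp, which compacts the myelin membrane, ran from 923 to 2145 normalized counts in neuron libraries and from 5.84 to 17.6 in astrocyte libraries. Mag, an adhesion protein facing the axon, was at 13.5 ± 2.12 CPM in neurons and at 0 to 3.90 normalized counts in astrocyte libraries. Nkx6-2, a homeodomain factor of mature cells, was low in neuron libraries (24.7 to 53.7 normalized counts) and at 0 to 2.12 in astrocyte libraries. The tight junction gene Cldn11 was at 57.7 ± 5.84 and 5.89 ± 1.125 CPM, and Lims2, an adaptor of cell adhesions, at 75.0 ± 2.67 and 8.22 ± 0.793. Sirt2 (a tubulin deacetylase) and Qdpr (a pterin reductase), both used by other cells too, had ratios of 1.64 and 2.61.

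The galactolipid genes of myelin did not share one pattern between cultures. Ugt8, which makes galactosylceramide, ran from 971 to 1311 normalized counts in neuron libraries and from 0 to 3.12 in astrocyte libraries. Gal3st1, which turns it into sulfatide, ran from 364 to 441 and from 0 to 3.22, and Fa2h, which hydroxylates its fatty acid, was at 47.0 ± 3.498 and 1.81 ± 0.398 CPM. Galc, the lysosomal enzyme that breaks galactosylceramide down, was in contrast at 18.035 ± 1.17 CPM in neurons and 22.7 ± 0.845 in astrocytes, with every neuron library below every astrocyte library.

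The remaining myelin genes were Mog, Mobp, Mal, Ermn and Opalin. Mog, a protein of the outer myelin face, overlapped between cultures (7.34 ± 0.386 and 8.17 ± 1.14 CPM). Mobp, a small protein of compact myelin, had a higher mean in neuron cultures (1.53 ± 0.714 and 0.556 ± 0.217 CPM, a ratio of 2.74), though single libraries overlapped. Mal, a membrane raft protein that Schwann cells and epithelia also carry, was below the minimum in neurons (0.905 to 8.01 normalized counts) and at 27.997 to 57.9 in astrocytes. Ermn, a cytoskeletal protein of late oligodendrocytes, was at 1.08 to 11.4 and 4.31 to 9.02 normalized counts, and Opalin, a late myelin protein, had 1.07 normalized counts in 1 astrocyte library and 0 in the others.

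**Figure D1:**
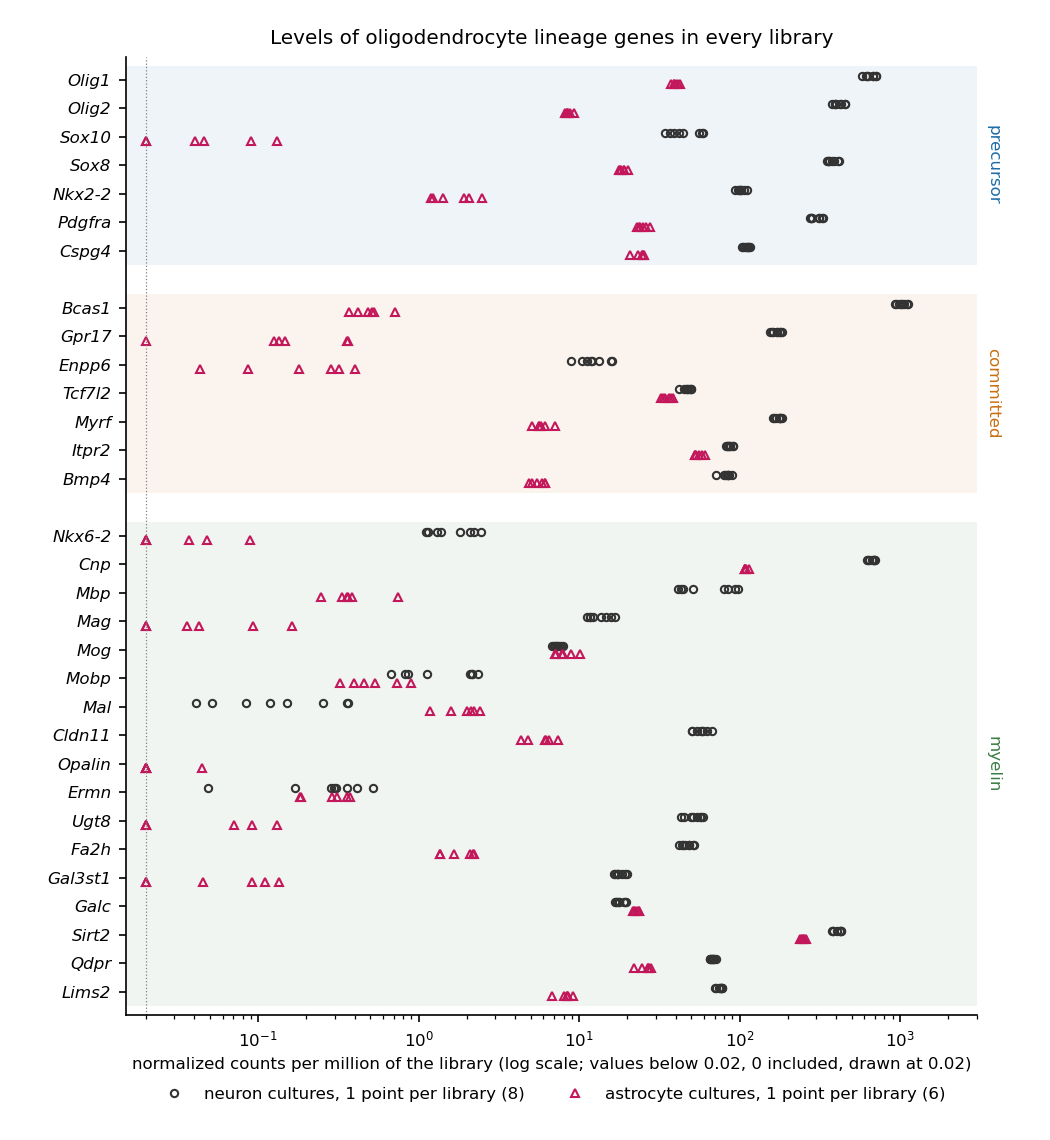
Level of each lineage gene in every library, in CPM on a log scale, with open circles for 8 neuron libraries and triangles for 6 astrocyte libraries. Points on the dotted line at the left are at or near 0. The precursor genes and the committed genes other than Tcf7l2 and Itpr2 lie well to the right in neuron cultures, while Mog, Mobp and Ermn overlap and Galc and Mal lie to the right in astrocytes.

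Within the neuron cultures, the libraries were first compared by the first part of the replicate number, since levels are given per culture. With treatment as a term in the fit, 13 of the 28 members differed between libraries numbered 2-x and 1-x at an adjusted p under 0.05, 4 higher and 9 lower in 2-x. Over all genes tested 17.2% passed this rule (9.61% higher and 7.61% lower). The median log2 difference of the members was -0.02, against -0.0026 for all 15314 genes tested. Treatment was balanced over the first number, and culture, preparation and sequencing cannot be told apart as what it stands for.

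Of the 7 precursor genes, 4 were lower and 2 higher in libraries 2-x at that threshold. Pdgfra read 6926 and 6871 (AM-Veh) and 7257 and 7165 (AM-Allo) in libraries 1-x, against 6346, 6138, 6233 and 6220 in libraries 2-x. Every 2-x library was below every 1-x library (log2 difference -0.18 ± 0.024 (SE), adjusted p = 9.97e-05). Olig1 (-0.16), Olig2 (-0.15) and Sox8 (-0.14) were lower in the same way, with no overlap. Sox10 (chr7:112605721-112615097 on GRCr8) moved against them. It read 814, 751, 860 and 918 in libraries 1-x and 989, 1253, 1291 and 1326 in libraries 2-x (log2 difference 0.53 ± 0.061 (SE), adjusted p = 1.97e-05). Nkx2-2 was also higher (0.13 ± 0.036 (SE), adjusted p = 0.0174, which became 0.0528 when AM-Veh 1-1 was left out and 0.0740 when AM-Allo 2-2 was), and Cspg4 did not pass (0.03, adjusted p = 0.574).

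Among the 7 committed genes, Bcas1 (log2 difference 0.15, adjusted p = 4.89e-04) and Gpr17 (0.11, adjusted p = 0.0431) were higher in 2-x, though their groups overlapped. Enpp6 was lower, from 314 ± 44.9 to 237 ± 29.7 normalized counts (SD, n = 4 each; log2 difference -0.40, adjusted p = 0.00953), also with overlap. Tcf7l2, Myrf, Itpr2 and Bmp4 lay between -0.04 and 0.03 and did not pass. The call for Gpr17 was kept without AM-Veh 2-1 and lost without any of the other 7 libraries (adjusted p = 0.0513 to 0.123). Gpr17 (chr18:23850460-23857381, GRCr8) lies within the span of Lims2 (chr18:23828164-23866363) on the other strand. The kit kept strand, but the strand setting of the counting is not given in the sources used here, so counts of the pair are uncertain.

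The myelin genes held the widest gaps. Mbp read 1867 and 1760 in AM-Veh and 2145 and 2052 in AM-Allo among libraries 1-x, and 964, 923, 1132 and 998 in libraries 2-x. Its mean in 2-x was 0.513 times that in 1-x (log2 difference -0.96 ± 0.043 (SE), adjusted p = 2.09e-09). Mobp read 47.5, 45.9, 47.2 and 51.4 in libraries 1-x and 18.3, 25.3, 19.1 and 15.1 in libraries 2-x (log2 difference -1.28 ± 0.20 (SE), adjusted p = 3.79e-04). Mag went from 337 ± 28.6 to 261 ± 10.01 normalized counts (SD, n = 4 each; log2 difference -0.36, adjusted p = 0.00129). Nkx6-2 went from 47.0 ± 5.88 to 27.6 ± 2.90 (log2 difference -0.74, adjusted p = 0.0104, and 0.0504 without AM-Allo 1-1). For these 4 genes every 2-x library was below every 1-x library. The other 10 myelin genes did not pass, with log2 differences from -0.03 (Cldn11) to 0.10 (Galc). Ugt8, Fa2h, Gal3st1 and Galc, the galactolipid genes, were among these 10. Over the whole list, 2 members were above and 8 below with no overlap, where 10.2% and 9.47% of all genes were.

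**Figure D2:**
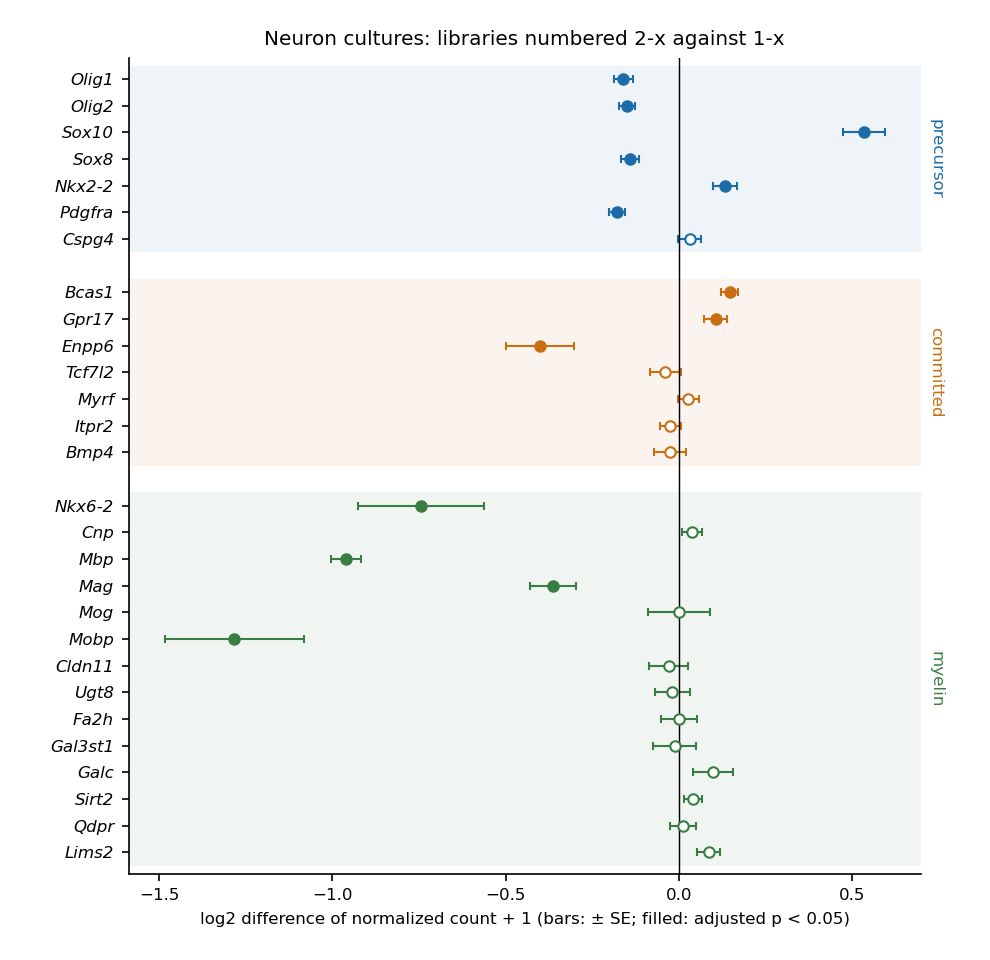
Log2 difference of normalized count + 1 between neuron libraries numbered 2-x and 1-x (4 against 4, treatment as a term in the fit) for each member, with bars of ± 1 SE. Filled points passed an adjusted p under 0.05. Mobp, Mbp and Nkx6-2 lie farthest to the left and Sox10 farthest to the right, while the galactolipid genes sit near 0.

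SOX factors, Sox10 among them, bind the core ACAAAG. The bases before 3 of the 9 members lower in 2-x are shown because they hold this core. The windows of Olig2, Pdgfra and Nkx6-2, also lower in 2-x, do not hold it. Of the windows of Mbp, lower in 2-x too, one holds the core and is not shown, and the other does not. Capitals mark this core or its reverse complement CTTTGT. The sequences are RefSeq's, from GRCr8, read 5′ to 3′ on the strand of the gene and ending at the last base before its annotated span.
Mobp (chr8:128746982-128747116, plus strand): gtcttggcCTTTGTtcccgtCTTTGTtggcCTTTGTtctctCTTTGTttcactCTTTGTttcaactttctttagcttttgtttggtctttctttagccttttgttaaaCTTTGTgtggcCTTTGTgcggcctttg
Mag (chr1:95291134-95291294, minus strand): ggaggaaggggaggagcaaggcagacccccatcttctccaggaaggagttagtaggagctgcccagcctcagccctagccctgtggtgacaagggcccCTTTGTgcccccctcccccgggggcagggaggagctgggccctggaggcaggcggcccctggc
Enpp6 (chr16:52026790-52026978, minus strand): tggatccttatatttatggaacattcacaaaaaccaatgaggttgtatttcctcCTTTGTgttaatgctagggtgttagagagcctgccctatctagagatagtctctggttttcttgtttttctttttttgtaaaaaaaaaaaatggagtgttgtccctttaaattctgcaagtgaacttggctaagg
The stretch before Mobp holds 7 copies of the core in 135 bases, all as CTTTGT, and those before Mag and Enpp6 hold 1 each. RefSeq's table gives windows of 250 bases before a transcript start, some of which reach into the annotated span of the gene, and both strands were searched. The core was in 6 of the 26 windows of 24 members (23.1%; Mobp, Mag, Enpp6, Opalin, Cnp and 1 of the 2 of Mbp) and in 16.3% of all 33469 windows. Mobp has 8 matches in its 250 bases, and 2 of all windows have 8 or more. Olig1, Sox10, Sox8, Bcas1, Myrf, Mog and Ermn have no entry. A match in this window is a description and not a binding site.

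Other genes of the lineage were taken from lists of known markers. Of 19 other precursor genes tested, 15 were lower in 2-x by sign. At an adjusted p under 0.05, 8 were lower and 0 higher (7.61% and 9.61% of all genes were). Among the 8 were Vcan (log2 difference -0.29), Sox5 (-0.23), Sulf2 (-0.22) and Xylt1 (-0.19). Of 15 other committed genes, 12 were lower by sign, and Gpr37 (-0.31), Rras2 (-0.15) and Plekha1 (-0.14) passed the threshold as lower and 0 as higher. Of 26 other myelin genes, 14 were lower by sign and 7 passed as lower, among them Nipal4 (-1.17), Aspa (-0.69), Anln (-0.36) and Gamt (-0.21). The 4 that passed as higher were Prr5l (0.45), Apod (0.41), Cryab (0.31) and Pmp22 (0.13). The median log2 differences of the 3 lists were -0.07, -0.02 and -0.01.

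Among 34 genes of signals that act on precursors, 18 were higher and 16 lower in 2-x by sign, and 10 higher and 5 lower passed an adjusted p under 0.05. The growth factors Ntf3 (log2 difference 0.83), Fgf2 (0.73), Cntf (0.55) and Nrg1 (0.53) and the Wnt target Apcdd1 (0.38) led the rises. Hes5, a target of Notch that keeps precursors immature, fell from 722 to 439 normalized counts (-0.72), and Lpar1 (-0.39), Bmp7 (-0.20), Ptch1 (-0.19) and Notch1 (-0.13) were the others that fell. Markers of other cells moved between the same libraries and are counted at the same threshold. All 10 proliferation genes were lower by sign and 8 of them passed, and their sum spanned 346 to 382 CPM in libraries 1-x and 283 to 300.1 in libraries 2-x. Of 10 astrocyte markers 4 passed as higher, Gfap among them (0.62), and 3 as lower, with sums of 10634 to 11120 and 11780 to 12769 CPM. Of 10 mesenchymal markers 2 passed as higher and 4 as lower, with sums of 307 to 364 and 331 to 443. No marker of these 3 lists was at 0 in every library. Of 10 neuron markers 8 were higher by sign, 2 passed as higher and 0 as lower, and Map2 (-0.01) and Dcx (-0.04) did not pass. The part of these shifts in the members' differences was not tested.

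Allo was then compared with vehicle in the neuron cultures. The log2 difference of AM-Allo from AM-Veh was above 0 for 25 of the 28 members and below 0 for 3. It was above 0 for 49.2% of all genes tested. The members were chosen with earlier results of these data known, so their contrast with all genes is a description. The differences were small, with a median log2 difference of 0.10 against -0.0015 for all genes. No member passed an adjusted p under 0.05 in the fit without a block (0.0261% of all genes did). At an unadjusted p under 0.05, 10 members passed, all higher (3.21% of all genes were higher by this rule). The 10 came to 5 without AM-Veh 2-1 and to 6 without AM-Veh 1-1, AM-Veh 1-2 or AM-Allo 1-2. Libraries with the same first number deviated together, so the first number was also used as a block. Then 3 members rose at an adjusted p under 0.05 (0.372% of all genes rose) and 17 at an unadjusted p under 0.05 (5.76%). No member was lower by either rule with the block.

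By stage, the median difference was lowest for precursor genes. Of 7, 6 were higher and 0 passed an unadjusted p under 0.05, with a median log2 difference of 0.07. All 7 committed genes were higher (median 0.11), and 4 of them passed the unadjusted rule. Of 14 myelin genes 12 were higher (median 0.13), and 6 passed it. With the block by first number, 4 precursor, 6 committed and 7 myelin genes passed the unadjusted rule. These medians were not tested against each other. Summed, the myelin genes spanned 1395 to 1497 CPM in AM-Veh and 1510 to 1600.2 in AM-Allo with no overlap. Most of this sum came from Cnp and Sirt2 (means of 668 and 406 CPM over the neuron libraries). The precursor sums (1897 to 2089 and 1899 to 2158) and the committed sums (1472 to 1652 and 1609 to 1707) overlapped. Ugt8, Sirt2 and Itpr2 had all 4 AM-Allo libraries above all 4 AM-Veh libraries and 0 members the reverse, where 2.06% of all genes were above and 1.89% below. Each stood at the smallest exact permutation p that 4 against 4 can give (two-sided p = 0.0286).

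Ugt8, the galactosylceramide synthase (chr2:216938884-217007167, GRCr8), had the largest difference of the 28. It read 1089, 994, 971 and 1144 normalized counts in AM-Veh and 1265, 1311, 1209 and 1268 in AM-Allo, for replicates 1-1, 1-2, 2-1 and 2-2 in turn. The means were 1049 ± 81.2 and 1263 ± 41.7 (SD, n = 4 each; log2 difference 0.27 ± 0.056 (SE)). The adjusted p was 0.353 without a block and 0.0233 with the block by first number. Each AM-Allo library was above the AM-Veh library of the same number.

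Sirt2 (chr1:93181472-93204499) read 8396, 8303, 8594 and 9069 in AM-Veh and 9396, 9444, 9365 and 9473 in AM-Allo. All AM-Allo values lay above the highest AM-Veh value, 9069 in replicate 2-2 (log2 difference 0.13 ± 0.032 (SE), adjusted p = 0.455, and 0.0239 with the block). Bcas1 (chr3:179554754-179637800) read 20720, 20391, 22171 and 23791 in AM-Veh and 22425, 22763, 24793 and 24762 in AM-Allo. Its groups overlapped over all 8 libraries and did not within either first number (log2 difference 0.12 ± 0.055 (SE), adjusted p = 0.871, and 0.0276 with the block). Mbp showed the same layering on a wider scale. In libraries 1-x it was at 1814 in AM-Veh and 2098 in AM-Allo (means of 2), and in libraries 2-x at 944 and 1065 (log2 difference 0.19, adjusted p = 0.998, 0.0621 with the block by first number and 0.0383 with the block by whole number).

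**Figure D3:**
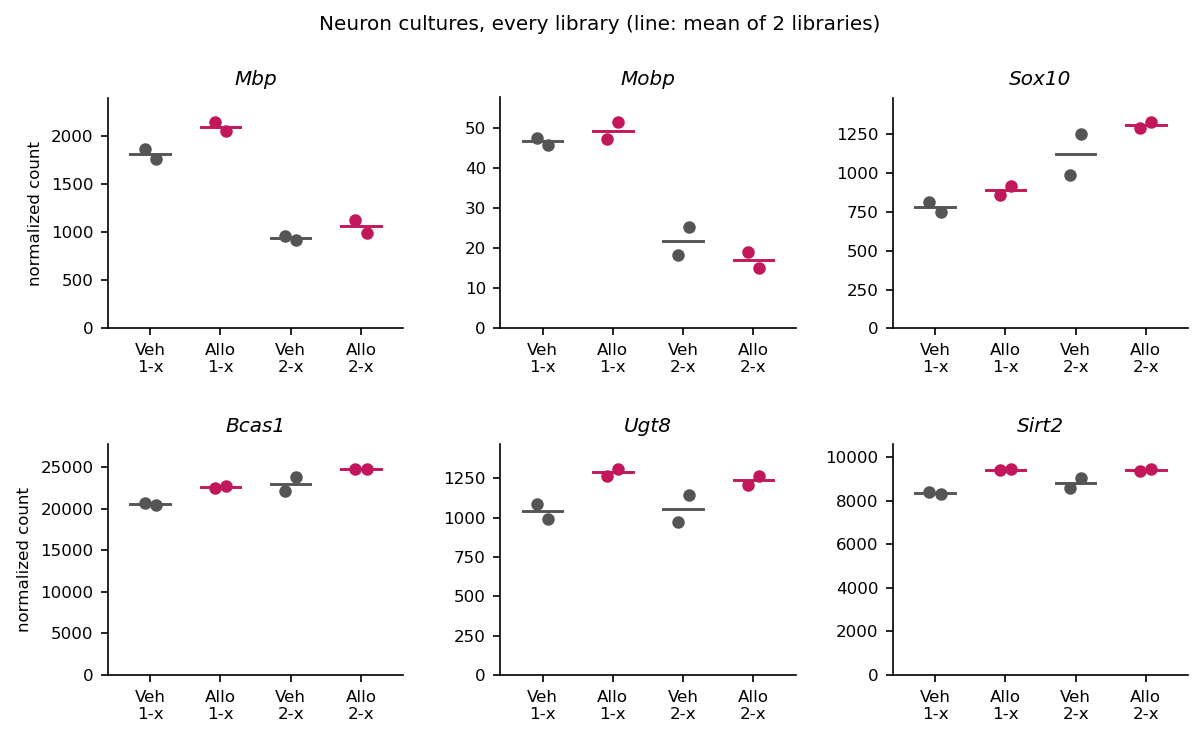
Normalized counts of 6 members in every neuron library, with AM-Veh in grey and AM-Allo in red, split by the first part of the replicate number, on axes that start at 0. Mbp and Mobp are lower and Sox10 higher in libraries 2-x, and both AM-Allo libraries lie above both AM-Veh libraries of the same first number for Mbp, Sox10, Bcas1, Ugt8 and Sirt2.

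Itpr2 read 1836, 1864, 1834 and 1884 in AM-Veh and 2023, 2006, 1930 and 1946 in AM-Allo (log2 difference 0.09, adjusted p = 0.712, and 0.247 with the block). Itpr2 and Gpr17 are named in gene lists that the study drew from these libraries, so their direction is not independent evidence. Gpr17 was at 3626 ± 259.9 in AM-Veh and 3896 ± 152 in AM-Allo (log2 difference 0.11, adjusted p = 0.880). Myrf (0.10), Tcf7l2 (0.10), Bmp4 (0.12) and Enpp6 (0.20) lay on the same side. None of them passed an adjusted p under 0.05 with or without the block.

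Of the remaining galactolipid genes, Fa2h (log2 difference 0.14), Gal3st1 (0.14) and Galc (0.12) were higher in AM-Allo without passing an adjusted p under 0.05. Cldn11 read 1187, 1114, 1133 and 1318 in AM-Veh and 1486, 1391, 1285 and 1311 in AM-Allo (0.20, adjusted p = 0.650). Within libraries 1-x alone its difference was 0.32 (adjusted p = 0.0377) and within libraries 2-x 0.09 (adjusted p = 0.656). Fa2h was split likewise, 0.26 in 1-x and 0.03 in 2-x. The interaction of treatment and first number did not pass for either (adjusted p = 0.421 for Cldn11 and 0.389 for Fa2h), nor for any other member. Cnp was at 14336 ± 746 and 15259 ± 163 normalized counts (0.09, adjusted p = 0.806) and Mag at 285 ± 35.8 and 314 ± 54.0 (0.13, adjusted p = 0.990).

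Precursor genes moved little. Olig1 was at 14684 ± 788 in AM-Veh and 14288 ± 1204 in AM-Allo (log2 difference -0.04), and Pdgfra at 6570 ± 389 and 6719 ± 569 (0.03). Olig2 (0.07), Sox8 (0.08), Cspg4 (0.07) and Nkx2-2 (0.04) were no farther from 0 than 0.08. Sox10 had the largest difference of the 7, at 952 ± 225 and 1099 ± 244 (0.21, adjusted p = 0.984, and 0.178 with the block). Mog (0.01), Qdpr (0.02) and Lims2 (0.03) lay near 0, and the low genes Nkx6-2 (-0.03) and Mobp (-0.13) had SEs of 0.28 and 0.44, too wide to show a difference of the size seen in the others.

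Within libraries 1-x both AM-Allo libraries were above both AM-Veh libraries for 20 of 28 members and below for 0 (19.9% of all genes were above). Within libraries 2-x this held for 11 above and 2 below (20.4% above), and for 9 members in both (5.11%). The 2 below were Olig1 and Nkx6-2. The median log2 difference of the members was 0.12 in 1-x and 0.06 in 2-x. Fitted alone, libraries 1-x gave 2 members at an adjusted p under 0.05 (Sirt2 and Cldn11, where 0.229% of all genes passed) and libraries 2-x gave 0 (1.73%).

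**Figure D4:**
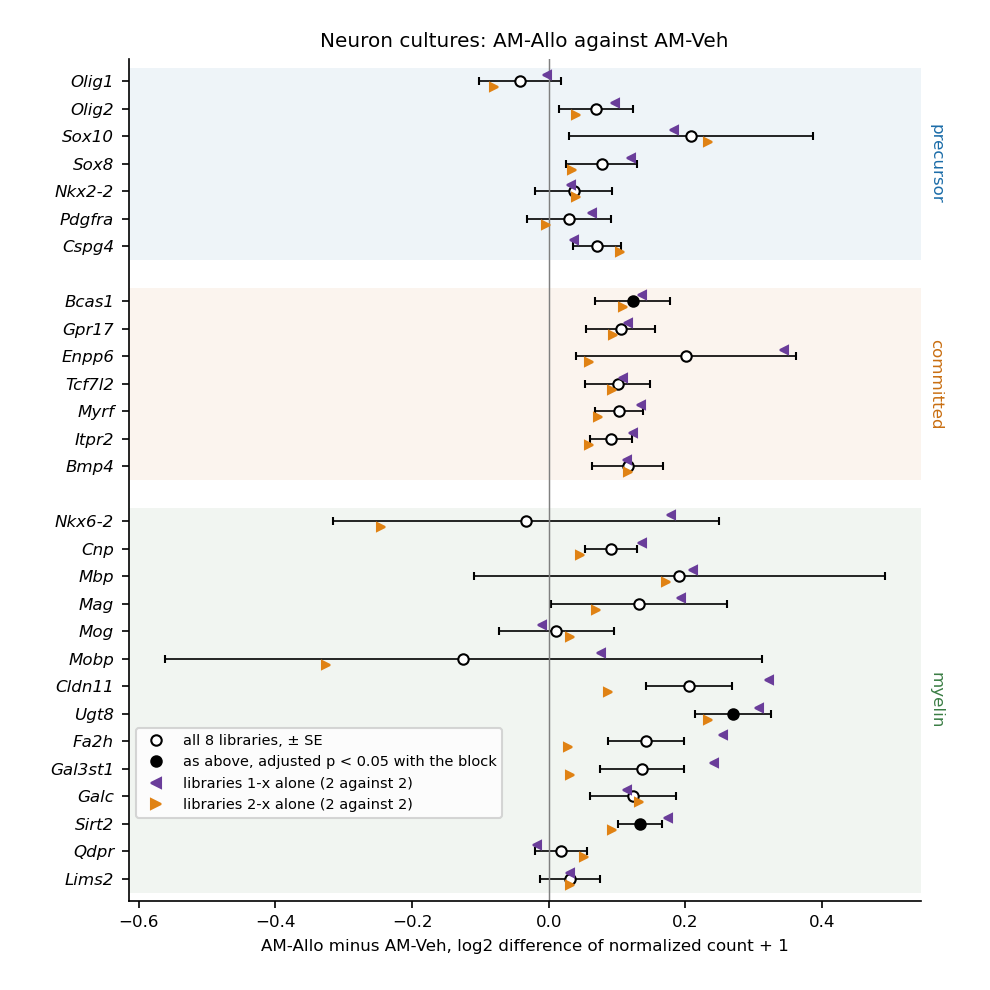
Log2 difference of normalized count + 1 between AM-Allo and AM-Veh in neuron cultures for each member, with circles and bars of ± 1 SE from all 8 libraries without a block and triangles for libraries 1-x and 2-x alone. Filled circles (Bcas1, Ugt8 and Sirt2) passed an adjusted p under 0.05 with the first number as a block. All 7 committed genes lie to the right of 0 in both sets of libraries.

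Other lineage genes in neurons gave 0 calls at an adjusted p under 0.05 without a block. Of 19 other precursor genes 15 were higher (median log2 difference 0.04), of 15 other committed genes 13 (0.07) and of 26 other myelin genes 20 (0.06). At an unadjusted p under 0.05, 3, 3 and 4 of them were higher and 0, 0 and 1 lower. Fyn, one of the committed genes counted, is in a gene list that the study drew from these libraries. Gpr62 of the other myelin list and Fgfr3 of the signal list are in such a list too. The lowest unadjusted p-values were those of Sema5a (0.17, adjusted p = 0.57) and C1ql1 (0.11, 0.792), Nfasc (0.11, 0.731) and Prickle1 (0.21, 0.792), and Tubb4a (0.19, 0.217) and Enpp2 (0.17, 0.589). With the block by first number Tubb4a, a tubulin of myelinating cells and neurons, rose from 7954 ± 294 to 9089 ± 266 normalized counts (adjusted p = 0.00729) and Sema5a from 5985 ± 230 to 6733 ± 375 (adjusted p = 0.0396). Of 34 signal genes 10 were higher and 24 lower, with Thra, a thyroid hormone receptor (0.09, adjusted p = 0.670), and Hes1, a Notch target (-0.20, adjusted p = 0.712), lowest in unadjusted p.

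Markers of other cells in the same libraries gave the following. Of 10 neuron markers 6 were higher in AM-Allo by sign (median log2 difference 0.08, from -0.45 to 0.29). Their sums were 2831 to 3157 CPM in AM-Veh and 3035 to 3349 in AM-Allo. At an unadjusted p under 0.05, 4 neuron markers were higher and 2 lower (492 and 380 of all 15314 genes were). None passed an adjusted p under 0.05 without a block, Map2 (0.10) and Dcx (0.11) included. With the block, 1 neuron marker rose and 2 fell. Within libraries 1-x their median was -0.05, with 0 higher and 3 lower at an adjusted p under 0.05, and within libraries 2-x it was 0.14, with 5 higher and 0 lower. Of 10 astrocyte markers 2 were higher (median -0.02), with sums of 10648 to 12769 and 10634 to 12458. Of 10 mesenchymal markers 6 were higher and 4 lower (median 0.05), with sums of 351 to 443 and 307 to 366. Most of that sum came from Tagln, with a mean normalized count of 6515 against 418 for the next gene, Fbln1. Of 10 proliferation genes 9 were higher (median 0.08), with sums of 283 to 346 and 286 to 382, and 0 passed. No marker of these lists was at 0 in every library. Their part in the members' differences was not tested.

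In the astrocyte cultures the members showed no call. The log2 difference was above 0 for 16 of 21 members and below 0 for 5, with a median of 0.10 (0.0014 for all genes, 50.7% of them above 0). The median was 0.033 for members with a mean of at least 50 and 0.028 in the authors' variance-stabilized values. Leaving out AM-Veh 1 or AM-Veh 3 gave 0.054, leaving out AM-Allo 1 gave 0.057, and leaving out AM-Allo 3 gave 0.043. None passed an adjusted p under 0.05 (0.0065% of all genes did), and 1 was higher at an unadjusted p under 0.05 (3.72% of all genes were). The design of 3 against 3 cannot give an exact permutation p below 0.1.

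The 1 gene was Nkx2-2 (chr3:155072621-155083699, GRCr8). It read 29.2, 28.4 and 34.0 normalized counts in AM-Veh and 48.8, 59.5 and 46.0 in AM-Allo. All AM-Allo values lay above all AM-Veh values (log2 difference 0.73 ± 0.22 (SE), adjusted p = 0.498, exact permutation p = 0.1). In neurons, where its level in CPM was 59.2 times as high, the same gene differed by 0.04. Bmp4 read 129, 117 and 122 in AM-Veh and 145, 140 and 147 in AM-Allo (0.23 ± 0.12 (SE), adjusted p = 0.753), and Cnp 2581, 2577 and 2565 against 2587, 2722 and 2635 (0.04, adjusted p = 0.865). Nkx2-2, Bmp4 and Cnp were the members whose groups did not overlap, all with AM-Allo above (6.42% of all genes were above and 6.07% below).

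Other members of the astrocyte cultures overlapped between groups. Olig1 (log2 difference 0.03), Olig2 (0.03), Sox8 (-0.05), Pdgfra (0.10) and Cspg4 (0.13) stayed within 0.13 of 0. Sirt2 (-0.04), Galc (0.02), Itpr2 (-0.0026), Qdpr (-0.04) and Tcf7l2 (-0.08) did likewise. Larger values came with wider errors, as for Bcas1 at 10.4 ± 1.77 and 13.7 ± 2.9995 normalized counts (0.37 ± 0.36 (SE)), Mobp (0.38 ± 0.40 (SE)) and Mal (0.42 ± 0.25 (SE)). Myrf (0.13), Lims2 (0.12), Cldn11 (0.15), Fa2h (0.11) and Mog (0.05) did not pass either. Gpr17 was below the minimum, at 3.21, 0 and 2.99 in AM-Veh and 8.69, 8.48 and 3.51 in AM-Allo, and was not tested.

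**Figure D5:**
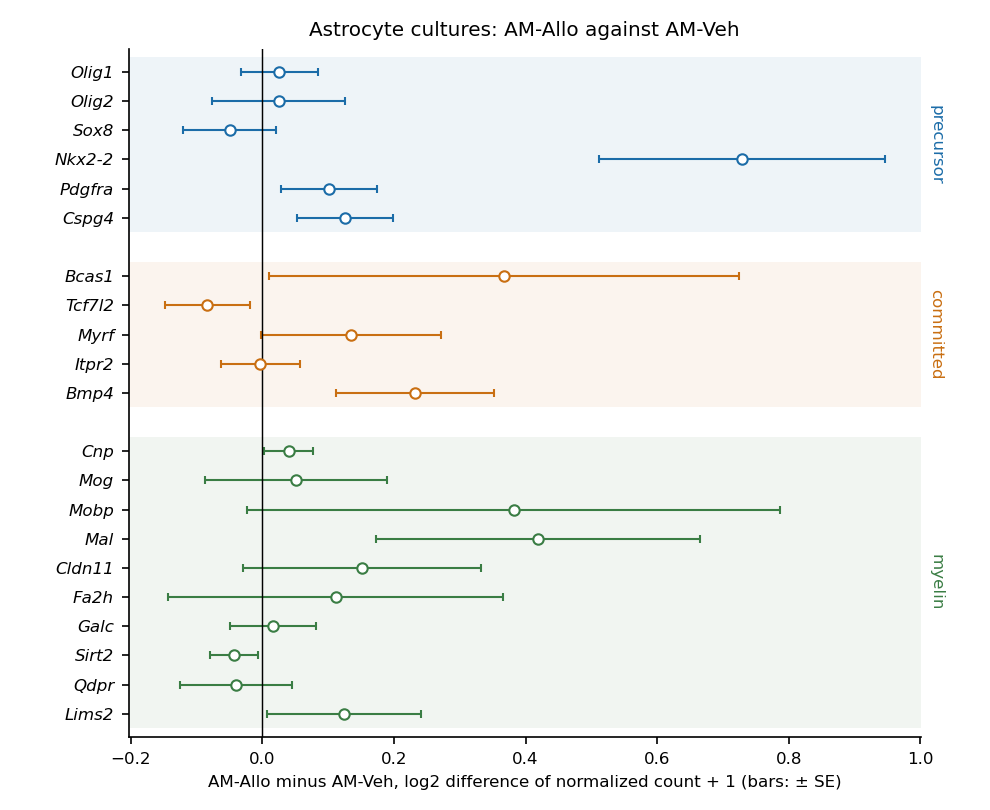
Log2 difference of normalized count + 1 between AM-Allo and AM-Veh (3 against 3) in astrocyte cultures for each member measured there, with bars of ± 1 SE. All points are open because none passed an adjusted p under 0.05. Nkx2-2 lies farthest to the right at 0.73.

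Other lineage genes in the astrocyte cultures gave 0 calls at an adjusted p under 0.05, with medians of -0.05 (17 precursor genes, 5 higher), -0.02 (15 committed genes, 7 higher) and -0.02 (23 myelin genes, 9 higher). At an unadjusted p under 0.05, 0, 2 and 2 of these passed. The lowest unadjusted p-values belonged to Sema5a (-0.09) and Vcan (-0.17), Kif19 (-0.48, adjusted p = 0.422) and Tmem163 (-0.26), and Ppp1r14a (0.32, adjusted p = 0.570) and Plekhb1 (-0.11). Of 32 signal genes 16 were higher and 16 lower, with Id4 (-0.16) and Pdgfc (-0.10) lowest in p. The microglia markers, a cell type that shaking is meant to remove with the oligodendrocytes, summed to 55.6 to 72.2 CPM in AM-Veh and 57.8 to 63.3 in AM-Allo. The neuron markers summed to 1151 to 1194 and 1125 to 1174, and 0 of either list passed an adjusted p under 0.05.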

How the data were processed

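RNA was sequenced from 14 libraries, 8 of neuron cultures and 6 of astrocyte cultures. The authors selected poly(A) RNA, kept strand, estimated transcript abundance with Salmon (version 0.14), summed it to genes and divided by DESeq2 (version 1.18.1) normalization factors. They deposited these signal values, which are normalized counts and not whole numbers, so no count model was applied. They also deposited variance-stabilized values on a scale close to log2. In neurons those had been adjusted for the first part of the replicate number, since the mean difference between 2-x and 1-x was 0 for every gene. All value columns were used.

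Values were taken as log2(normalized count + 1), with genes kept at a mean of at least 10. Each culture was tested alone with limma (version 3.58.1, R 4.3.3; moderated variance with a trend) without a block, and p-values were adjusted by Benjamini-Hochberg over all genes tested (15314 in neurons and 15380 in astrocytes). A call needed an adjusted p under 0.05. The unadjusted rule is the one the study used. All other p-values are two-sided exact permutation tests of single members. Levels across cultures are given per 1000000 of a library's summed normalized counts (CPM). They are not corrected for transcript length, so levels of different genes are not compared, apart from their weight in a sum. Estimated depth gives no interval, because only 79.8% to 92.3% of neuron values and 60.3% to 91.6% of astrocyte values lay within 0.15 reads of a whole read.

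In neurons, deviations from the group means were correlated between AM-Veh and AM-Allo libraries of the same number (r = 0.23 to 0.30) and of the same first number (0.19 to 0.24), against -0.32 to -0.15 for other pairs. The first number was therefore taken to group the samples, from the data and not from the labels, and blocked values are given where they change a call. The ranges for the same number and the same first number overlapped, so pairing by the whole number is less sure. On simulated data with 200 genes changed by 1 log2 unit, 97% were recovered in each of the 3 comparisons (of 15252, 15302 and 15244 genes). The Allo differences of members in neurons were at most 0.27, and changes of that size were not simulated. Nor did the simulation for Allo hold a difference by first number. The recovery therefore does not tell how many such small differences would be found.

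The members and all lists were chosen with earlier results of these data known. The text names every member. From 4 lists of other lineage genes it names those past the threshold (at most 5 per list and direction) and, where none passed, the 2 with the lowest unadjusted p. Some genes that this rule names are not reported here. Map2, Dcx, Stmn2, Tagln, Csf1r and Gfap stand for their marker lists and were chosen after their values were seen. Positions and sequences are from RefSeq (GRCr8), another assembly than the authors'.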

Additional observations from a re-analysis of the deposited data

Results flagged for a closer look

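Of 56 groups of 4 neuron libraries, 2 had a library far from the other 3. Qdpr, the pterin reductase, was at 1453 normalized counts in AM-Veh 2-1 and at 1497 to 1505 in the other AM-Veh libraries. Tcf7l2, the Wnt pathway factor, was at 1029 in AM-Allo 2-1 and at 1094 to 1106 in the other AM-Allo libraries. Chance marks about 1 in 20 groups in this way. The astrocyte groups of 3 were too small for this rule.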

How the results depend on the processing

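For Allo in neurons, genes at an adjusted p under 0.05 numbered 4. They numbered 158 with the authors' variance-stabilized values (adjusted for the first number). The fit of those values held no term for that adjustment, so its p-values are too small. The called genes were 0 without a variance trend, 93 with the whole-number block and 104 with the first-number block. They were 35 in libraries 1-x, 265 in libraries 2-x and 0 to 4 when a library was left out. Genes at an unadjusted p under 0.05 went from 872 to 2204 (variance-stabilized), 1634 and 1684 (blocks) and 1923 (2-x). Members called went from 0 to 4 (variance-stabilized), 4 and 3 (blocks) and 2 (1-x), and at an unadjusted p from 10 to 20, 17 and 17, and 17, with 5 to 12 when a library was left out. The members' median of 0.10 became 0.059 in 2-x. In 1-x Nkx6-2 (0.18), Mobp (0.076), Mog (-0.0094) and Qdpr (-0.017) changed sign, and in 2-x Pdgfra (-0.0033). With a library left out, the sign changed for Olig1 (-0.087 to 0.0014), Nkx2-2 (-0.0079 to 0.068), Pdgfra (-0.0081 to 0.066), Nkx6-2 (-0.23 to 0.13), Mog (-0.032 to 0.047), Mobp (-0.39 to 0.18) and Qdpr (-0.0062 to 0.039).

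For astrocytes, called genes went from 1 to 0 (mean of at least 50, or no trend), 4 (robust variance) and 17 (block), and to 1 to 72 with a library left out, 72 without AM-Allo 1. Same-numbered astrocyte libraries did not deviate together (r = -0.0070 to 0.024, others -0.062 to 0.049), so the block rests on a number only. Members at an unadjusted p under 0.05 went from 1 to 2 (no filter, or no trend), 0 (mean of at least 50, which drops Nkx2-2) and 1 to 3 (3 without AM-Allo 1, 2 without AM-Veh 2 or 3). The members' median of 0.10 became 0.033 with a mean of at least 50 and 0.028 (variance-stabilized), and 0.043 to 0.094 with a library left out (0.054 without AM-Veh 1 or 3, 0.057 without AM-Allo 1, 0.043 without AM-Allo 3). With a library left out, the sign changed for Olig1 (-0.017 to 0.080), Olig2 (-0.026 to 0.063), Itpr2 (-0.070 to 0.038), Mog (-0.095 to 0.15), Cldn11 (-0.021 to 0.33), Fa2h (-0.044 to 0.33), Galc (-0.010 to 0.054) and Qdpr (-0.11 to 0.062).

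Between 2-x and 1-x, called genes went from 2636 to 1722 without a trend. The members' median of -0.015 spanned -0.044 to 0.017 with a library left out, above 0 without AM-Allo 1-1 (0.017) or AM-Allo 2-1 (0.00096). Cnp (-0.0039) and Mog (-0.013) changed sign with quantile normalization and Fa2h (0.0035) with upper-quartile scaling. With a library left out, Myrf (-0.0037 to 0.046), Bmp4 (-0.076 to 0.027), Mog (-0.051 to 0.044), Cldn11 (-0.097 to 0.013), Ugt8 (-0.074 to 0.021), Fa2h (-0.050 to 0.038), Gal3st1 (-0.036 to 0.032) and Qdpr (-0.014 to 0.029) did. The calls for Gpr17, Nkx2-2 and Enpp6 were lost without a trend. The variance-stabilized values could not be used here, since the difference had been removed from them. Summed levels in CPM were 5419 in neurons and 680 in astrocytes without genes of mitochondrial DNA (5104 and 655 with them). The causes were not tested.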

Other observations

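The myelin genes outside the members showed another pattern between cultures than the members did. Summed, the 33 other myelin genes spanned 1458 to 1680 CPM in neuron libraries and 1616 to 1825 in astrocyte libraries, where the 17 member myelin genes spanned 1395 to 1600.2 and 421 to 442. The list includes Tubb4a, with a mean normalized count of 8522 in neuron libraries, and Tf (the iron carrier transferrin) and Pmp22 (a myelin protein of Schwann cells), with 18656 and 5293 in astrocyte libraries. The summed Schwann cell markers spanned 19.4 to 26.3 CPM in neuron libraries and 34.0 to 39.1 in astrocyte libraries. The sums were not tested.

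In the astrocyte cultures the summed precursor members spanned 111 to 118.4 CPM in AM-Veh and 119.2 to 122 in AM-Allo. They did not overlap, though the gap was narrow. Of all genes taken singly, 6.42% were above and 6.07% below without overlap. The summed committed members spanned 102 to 106 and 97.5 to 109, and the summed myelin members 428 to 442 and 421 to 442, both with overlap. These sums were not tested.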
